A study of Rattus norvegicus with 14 samples.

Results

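The genes described here are the S-phase genes of DNA replication and nucleotide synthesis. They were taken from a list of 45 genes, of which 40 had a probe set that the array annotation assigns to a single gene, among 14217 such genes on the array. Where a gene had several probe sets, the one with the highest mean log2 signal over the 14 arrays was used. Cdc6, Cdc7, Dbf4 and Gins2 had no single-gene probe set, and Rrm2 was found only in probe sets shared with the related gene Rrm2l1, so these 5 genes were not analysed here. The tissues came from male Wistar rats: 11 malignant peritoneal mesotheliomas that followed intraperitoneal injection of multiwalled carbon nanotubes (MWCNT B, 2 tumors; MWCNT C, 3; MWCNT D, 3) or amosite asbestos (3 tumors), and 3 control peritoneal tissues. The labels call the control rats sham-treated and the study's methods call them untreated, and neither the dose nor the age at necropsy is used here. The labels also give the histology: the sarcomatoid type (5 tumors) occurred under all 4 inducers, with 2 tumors from MWCNT C, whereas the biphasic type (3 tumors) was missing for MWCNT B and the epithelioid type (3 tumors) for MWCNT C. The sarcomatoid type is made of spindle-shaped cells, the epithelioid type of polygonal cells and the biphasic type of both. Each tissue was measured on 1 Affymetrix rat expression array, and all levels below are log2(signal + 1) of the deposited signals.

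In each cell cycle, the origin recognition complex (ORC) marks the sites where DNA copying can start, and Cdc6 and Cdt1 load the ring-shaped MCM helicase there, a step called licensing. Geminin (Gmnn) binds Cdt1 and stops a further round of loading. Cdc45 and the GINS complex then join the MCM ring to form the active helicase. Primase and polymerase alpha start the new strands, and the polymerases delta and epsilon extend them on the PCNA clamp. RPA covers single strands, and Fen1 and Lig1 join the lagging-strand pieces. Ribonucleotide reductase, thymidylate synthase and thymidine kinase supply the deoxynucleotides. Many of these genes are transcribed late in G1 and in S phase under E2F transcription factors and are used as markers of dividing cells, including in tumors.

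Promoter sequences were looked up to show what the members share in their DNA. RefSeq promoters of GRCr8, running from 250 bases before to 50 bases after the start of each gene, were matched for 36 of the 40 members. The table used had no entry for Orc1, Mcm4, Gins4 and Rpa3. An E2F-like motif, taken as TTCCCGC, or TTCGCGC, or TTGCCGC, or TTGGCGC on either strand, was found in 25 of 36 members (69.4%) and in 10.0% of the promoters of 27457 genes. Overlapping matches counted as 1 stretch, the members' promoters held 41 stretches, and 31 of these began within 50 bases of the start site. The CCAAT box was found in 21 members (58.3%, against 37.7% of all promoters). A CHR element, taken as TTTGAA or TTTAAA, was found in 5 members (13.9%, against 27.9%). Of the 41 E2F-like stretches, 2 overlapped a CCAAT box, in Mcm7 and Prim1. These matches describe the letters of the window only.

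The promoters of 3 members are shown because they span the range of the results below: Mcm3 and Mcm7 had the largest and the smallest rise, as fitted on the deposited signals, among the 6 subunits of the MCM ring, and Pola2 had the smallest change of all members. Mcm3 lies at chr9:30733697-30733996, Mcm7 at chr12:22163129-22163428 and Pola2 at chr1:212680493-212680792, all on the minus strand of GRCr8. They are written 5′ to 3′, and capitals mark E2F-like stretches.
Mcm3: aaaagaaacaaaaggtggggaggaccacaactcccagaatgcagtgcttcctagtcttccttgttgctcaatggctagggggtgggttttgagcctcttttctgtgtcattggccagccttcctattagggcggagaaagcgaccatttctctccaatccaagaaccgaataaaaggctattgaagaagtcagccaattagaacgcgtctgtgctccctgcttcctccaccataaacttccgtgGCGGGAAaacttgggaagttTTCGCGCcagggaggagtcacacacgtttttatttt
Mcm7: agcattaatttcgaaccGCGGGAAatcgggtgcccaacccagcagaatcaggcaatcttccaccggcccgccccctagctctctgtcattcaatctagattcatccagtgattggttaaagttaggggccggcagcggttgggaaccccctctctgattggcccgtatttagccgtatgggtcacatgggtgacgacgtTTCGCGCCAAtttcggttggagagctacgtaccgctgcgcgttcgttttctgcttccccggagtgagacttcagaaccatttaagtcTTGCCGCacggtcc
Pola2: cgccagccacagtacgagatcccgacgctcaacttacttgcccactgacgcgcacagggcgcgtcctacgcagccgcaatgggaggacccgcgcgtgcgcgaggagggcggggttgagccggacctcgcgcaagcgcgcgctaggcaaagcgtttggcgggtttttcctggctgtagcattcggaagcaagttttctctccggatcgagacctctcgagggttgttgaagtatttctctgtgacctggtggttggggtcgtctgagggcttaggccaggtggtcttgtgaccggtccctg
The Mcm3 promoter held 2 stretches, at -6 and 15 relative to the start site, and that of Mcm7 held 3, at -233, -51 and 37. The stretch at -51 of Mcm7 runs into a CCAAT box. The Pola2 promoter held none of these letters.

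Replication genes were higher in the mesotheliomas than in control peritoneum almost throughout. A gene was called when its adjusted p from limma, taken over all 31042 probe sets, was below 0.05 and its fold change was above 2. Of the 40 members, 34 were called higher in tumors and 0 lower, whereas 34.9% of all probe sets were called, 24.5% higher and 10.4% lower. The median log2 fold change of the members was 2.25, against 0.34 for all probe sets, which corresponds to a median fold of 4.77 for the members. For 23 members the tumor mean was over 4-fold and for 14 members over 8-fold above the control mean. Control signals were dim for some members, and with log2 signals below 5 raised to 5 these numbers were 22 and 10 members, with a median log2 fold change of 2.16. In 34 members every tumor lay above every control, as did 28.1% of all probe sets, and in no member did every tumor lie below every control, as in 14.1% of all probe sets. Together the members took 0.0406 to 0.044% of the total signal of a control array and 0.133 to 0.352% of that of a tumor array.

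**Figure D1:**
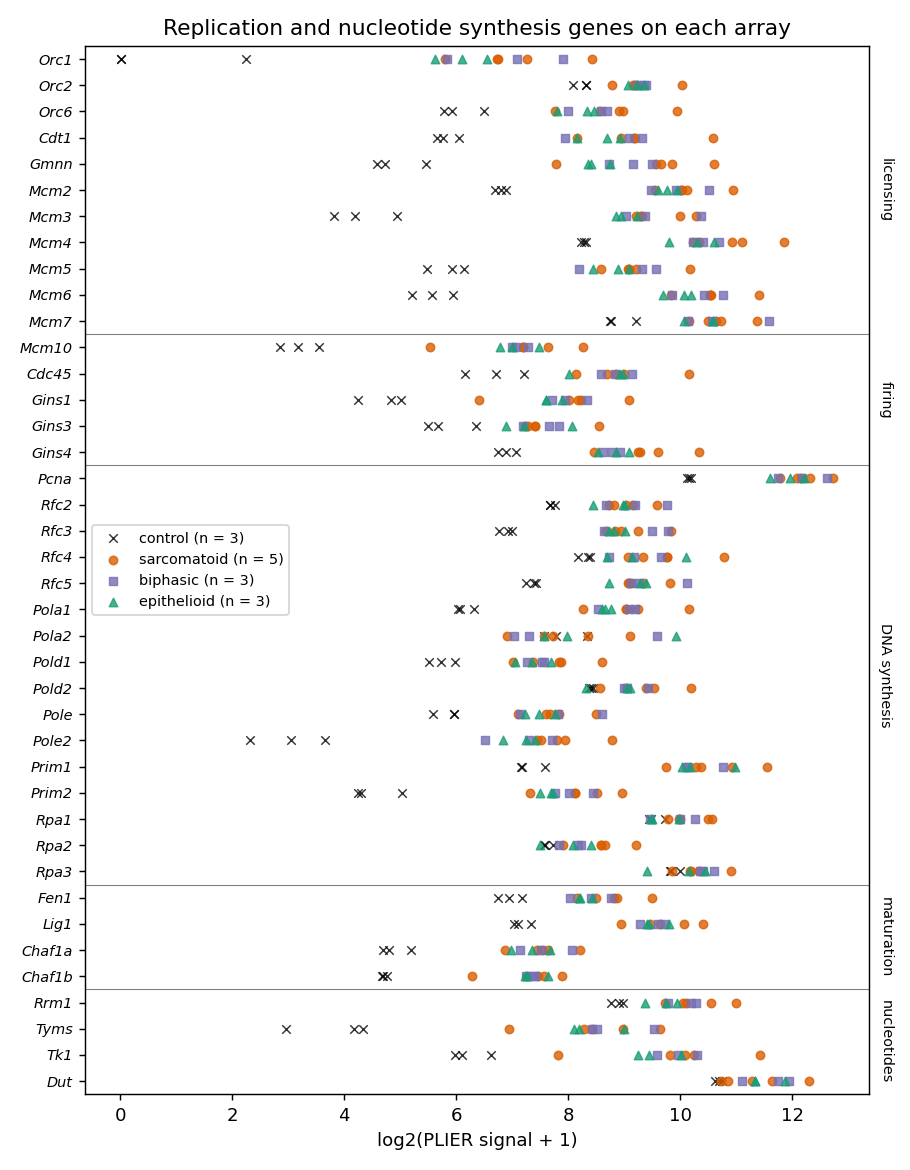
Log2(signal + 1) of each of the 40 members (rows, grouped by role) on each of the 14 arrays. Crosses are the 3 controls, and circles, squares and triangles are the 5 sarcomatoid, 3 biphasic and 3 epithelioid tumors. In 34 rows all tumors lie to the right of all controls, and the rows that overlap are Pola2, Pold2, Rpa1, Rpa2, Rpa3 and Dut.

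The tissues also differed in the markers of other cell types. The control arrays carried skeletal muscle RNA, with the 8 muscle markers (Acta1, Ckm, Myh4 and others) making up 5.07 to 5.21% of their signal against 0.0012 to 0.0016% in tumors, and 8 of 8 were called lower in tumors. Mesothelial markers, among them Msln and Wt1, averaged 2.32 to 5.36 in controls and 7.56 to 12.88 in tumors, with 5 of 5 measured markers called higher, so that the defining markers of the peritoneal lining were weak in the controls. Macrophage markers averaged 6.90 to 8.05 in controls and 8.82 to 11.47 in tumors, with 5 of 6 called higher. No marker had a signal of 0 on any array. The part of these differences in the rise of the replication genes was not tested, and in bulk tissue fewer cells of a type and less RNA per cell cannot be told apart. Control arrays had a median signal of 96.9 to 104 and tumor arrays one of 129 to 154. Centring each array on its median moved the median change of all probe sets from 0.34 to -0.10 and that of the members from 2.25 to 1.80, with 30 members called. The share of all calls that were higher was 70.2% as deposited, 46.6% after centring and 52.4% after quantile normalization, and quantile normalization also left 30 members called. Of all 31042 probe sets, 10301 were called after centring (4801 higher) and 10032 after quantile normalization (5257 higher).

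Licensing genes had the largest median change of the 5 role classes, with 11 of 11 measured members called higher and a median log2 fold change of 3.20. Orc1, the subunit of ORC whose level follows the cell cycle, was at 0.01, 0.01 and 2.24 in the 3 controls and at 5.62 (lowest), 6.72 (median) and 8.43 (highest) in the 11 tumors. All tumors lay above all controls, although the lowest tumors were dim too. The fitted log2 change was the largest of the members, 5.98 ± 0.59 (SE, adjusted p = 1.5e-06, limma). The control signals were so weak that this size and its rank depend on how low values are treated, and with the floor at 5 the change was 1.73 (adjusted p = 0.014). Orc2, another ORC subunit, was at 8.31, 8.08 and 8.32 in controls and at 8.79, 9.22 and 10.04 in tumors. It had the smallest change of the class, 1.04 ± 0.19 (adjusted p = 0.00036), and the groups did not overlap. This call rests on a fold just above 2, and it was lost after centring (0.59), after quantile normalization (0.70), and without MWCNT D replicate 2 (0.96) or control replicate 2 (0.96). The small ORC subunit Orc6 rose by 2.48 ± 0.36, and its 3 probe sets were all called higher. ORC did not rise as a whole, since its subunits Orc3, Orc4 and Orc5, which were not on the member list, did not rise. Orc4 was at 9.85 to 10.05 in controls and at 8.09 to 9.37 in tumors, with every tumor below every control. For Orc3 and Orc5 the groups overlapped, and 0 and 1 tumors lay above all controls.

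The MCM ring, the motor of the replicative helicase, was higher in tumors for each of its 6 subunits, with no overlap between groups. Mcm2 was at 6.80, 6.69 and 6.88 in controls and at 9.48, 9.95 and 10.95 (lowest, median, highest) in tumors, a change of 3.20 ± 0.25 (SE, adjusted p = 1.7e-07, limma). Mcm3 was at 4.20, 3.82 and 4.94 in controls and at 8.85, 9.29 and 10.38 in tumors. Its change of 5.13 ± 0.33 (adjusted p = 2.2e-08) was the largest of the 6. With the floor at 5 Mcm3 differed by 4.45 (adjusted p = 1.1e-07), less than Mcm6 at 4.77. Mcm4 was at 8.32, 8.28 and 8.23 in controls and at 9.80, 10.41 and 11.85 in tumors, a change of 2.31 ± 0.31. The controls of Mcm2 and Mcm4 lay within 0.2 of each other, while the tumors of each spread over more than 1 log2 unit. Mcm5 was at 5.48, 6.14 and 5.92 in controls and at 8.20, 9.09 and 10.18 in tumors, a change of 3.21 ± 0.32. Mcm6 was at 5.21, 5.95 and 5.57 in controls and at 9.69, 10.43 and 11.41 in tumors, a change of 4.77 ± 0.30. Mcm7 was at 9.21, 8.75 and 8.77 in controls and at 10.06, 10.58 and 11.58 in tumors, the smallest change of the ring at 1.72 ± 0.28 (adjusted p = 0.00015). Since the 6 proteins form 1 ring, these changes from 1.72 to 5.13 are relative to each probe set's own control level and do not rank the amounts of the subunits. Among the loading factors, Cdt1 rose by 3.10 ± 0.41 and its inhibitor Gmnn by 4.20 ± 0.47, from 4.58, 4.72 and 5.46 in controls to between 7.79 and 10.60 in tumors.

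**Figure D2:**
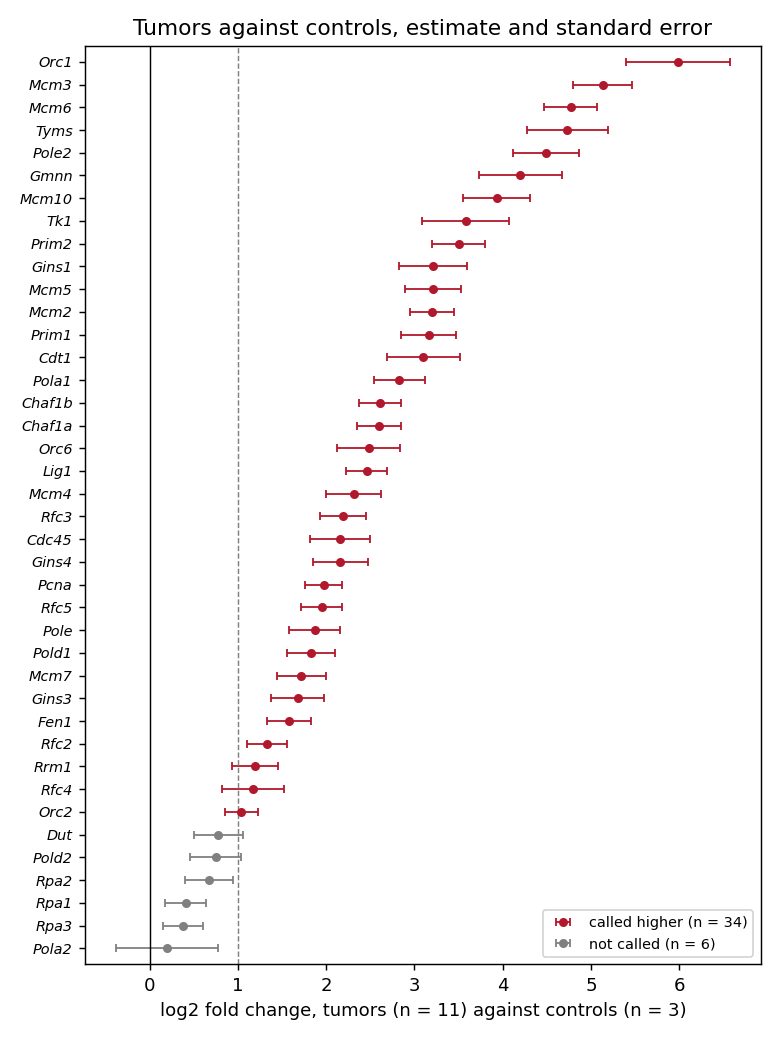
Log2 fold change of tumors (n = 11) against controls (n = 3) for each member, in order of size, with bars showing the standard error. The dashed line marks a fold of 2, and the 6 grey members, from Pola2 at 0.20 to Dut at 0.78, were not called.

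Genes of origin firing were called higher in 5 of 5 measured members (median log2 fold change 2.16). Mcm10, which binds the helicase as it is activated, was at 2.86, 3.55 and 3.17 in controls and at 5.53, 7.19 and 8.27 in tumors. Its change as fitted was 3.93 ± 0.38 (adjusted p = 1.4e-06), but all 3 controls were dim, and with the floor at 5 it was 2.13 (adjusted p = 0.00052), below Gins1 (2.90). Gins3, a subunit of GINS, was at 5.67, 6.35 and 5.50 in controls and at 6.88, 7.40 and 8.55 in tumors, the smallest rise at 1.68 ± 0.30 (adjusted p = 0.00027). The groups were apart for both genes, although the lowest tumor lay within 1 log2 unit of the highest control for Gins3. Cdc45 rose by 2.16 ± 0.34, Gins4 by 2.16 ± 0.31 and Gins1 by 3.21 ± 0.38. Cdc45 had 3 further probe sets, of which 2 were called higher and the dimmest differed by 0.08 (adjusted p = 0.72).

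The DNA synthesis class was the only one with several members that were not called. Here 11 of 16 members were called higher (median 1.85). Pole2, the small subunit of polymerase epsilon, was at 3.05, 2.31 and 3.65 in controls and at 6.51, 7.44 and 8.79 in tumors, a change of 4.49 ± 0.37 (adjusted p = 3e-07). These controls were dim as well, and with the floor at 5 the change of Pole2 was 2.50 (adjusted p = 5.8e-05), below those of Prim1, Prim2 and Pola1. Both primase subunits rose, Prim1 by 3.16 ± 0.31 and Prim2 by 3.50 ± 0.30 (3.01 with the floor). The catalytic subunit of polymerase alpha, Pola1, rose by 2.83 ± 0.29 and the clamp Pcna by 1.97 ± 0.21. The catalytic subunit of polymerase epsilon, Pole, rose by 1.87 ± 0.29. Pcna was at 10.20, 10.15 and 10.12 in controls and at 11.61, 12.16 and 12.73 in tumors, so that even this bright probe set separated the groups. The 4 clamp loader subunits measured, Rfc2 to Rfc5, rose by 1.17 to 2.19, and of these Rfc2 and Rfc4 were no longer called after centring (0.89 and 0.73) or quantile normalization (0.94 and 0.84).

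Pola2, the accessory subunit of polymerase alpha, stood apart from its partner Pola1. It was at 7.57, 7.78 and 8.33 in controls and at 6.91, 7.72 and 9.93 in tumors, and the groups overlapped, with 4 of 11 tumors above all controls. The high tumors were MWCNT D replicate 1 (9.93), amosite replicate 2 (9.58) and MWCNT C replicate 2 (9.10). MWCNT D replicate 1 and amosite replicate 2 were among the 4 lowest tumors by the median of all members. The mean difference was 0.20 ± 0.58 (SE, adjusted p = 0.79, limma), and it turned to -0.24 after centring and -0.19 after quantile normalization.

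The 3 subunits of RPA, the protein that coats single-stranded DNA, were not called. Rpa1 was at 9.72, 9.47 and 9.44 in controls and at 9.46, 9.98 and 10.57 in tumors (0.41 ± 0.23, adjusted p = 0.15). Rpa2 was at 7.72, 7.58 and 7.57 in controls and at 7.50, 8.23 and 9.21 in tumors (0.67 ± 0.27, adjusted p = 0.05). Rpa3 was at 10.00, 9.81 and 9.83 in controls and at 9.40, 10.33 and 10.91 in tumors (0.38 ± 0.23, adjusted p = 0.19). The tumors that exceeded all controls numbered 8 for Rpa1, 10 for Rpa2 and 9 for Rpa3, and after centring the differences of Rpa1 and Rpa3 were -0.04 and -0.07. Pold2, an accessory subunit of polymerase delta, was at 8.40, 8.37 and 8.44 in controls and at 8.32, 9.05 and 10.20 in tumors. Its change of 0.75 ± 0.29 passed the p threshold (adjusted p = 0.039) but stayed under a fold of 2, while Pold1, the catalytic subunit, rose by 1.83 ± 0.27. Among the 5 members not called that had a promoter entry, an E2F-like stretch was found in 1 (Rpa2), against 24 of 31 among the called members. Called members without such a stretch included Cdc45, Pcna, Prim2 and Tk1. A link between these stretches and the changes was not tested.

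Genes of Okazaki fragment maturation and chromatin assembly were called higher in 4 of 4 members (median 2.53). Chaf1b, a subunit of the factor that places histones on new DNA, was at 4.77, 4.69 and 4.67 in controls and at 6.28, 7.37 and 7.89 in tumors (2.61 ± 0.24, adjusted p = 6.7e-07; 2.33 with the floor at 5). Fen1, the nuclease that trims the flaps between lagging-strand pieces, was at 7.18, 6.94 and 6.75 in controls and at 8.04, 8.42 and 9.50 in tumors. With 1.58 ± 0.25 (adjusted p = 0.00013) it had the smallest rise of this class. Chaf1a rose by 2.60 ± 0.25 and the ligase Lig1 by 2.46 ± 0.23.

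Of the nucleotide synthesis members 3 of 4 were called higher. Tyms, thymidylate synthase, was at 2.96, 4.33 and 4.17 in controls and at 6.94, 8.43 and 9.63 in tumors, a change of 4.73 ± 0.46 (adjusted p = 1.2e-06). With the floor at 5 it was 3.55 (adjusted p = 2e-05), since all 3 controls lay below 5. The lowest tumor lay well above the highest control. Tk1, the cytosolic thymidine kinase, rose by 3.58 ± 0.49 and Rrm1, the large subunit of ribonucleotide reductase, by 1.19 ± 0.26, the latter with no call after centring (0.74) or quantile normalization (0.93). Dut, which removes dUTP, was at 10.74, 10.70 and 10.63 in controls and at 10.73, 11.34 and 12.30 in tumors. Its change of 0.78 ± 0.28 (adjusted p = 0.028) stayed under a fold of 2, with 10 of 11 tumors above all controls. A dimmer probe set of Dut was called at 1.13 ± 0.28 (adjusted p = 0.0037). Over the 8 members with several probe sets, 11 of 12 further probe sets were called higher.

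Other genes of replication and nucleotide metabolism moved less evenly. Of 68 such genes listed, 58 were measured, with a median log2 fold change of 1.30. In tumors 35 were called higher and 3 lower, against 24.5% and 10.4% of all probe sets. The 5 largest rises were Asf1b, a histone chaperone (5.03 ± 0.51), Ccna2, the S-phase cyclin A (4.88 ± 0.50), Top2a, topoisomerase II alpha (4.63 ± 0.40), Dctd, deoxycytidylate deaminase (4.51 ± 0.30), and Donson, a replisome factor (4.35 ± 0.38). The controls of Asf1b (2.51 to 3.23) and Donson (2.80 to 4.87) were dim, so that the sizes of these 2 changes are uncertain. The change was positive for 48 of the 58. The 3 called lower were Adsl (-1.99 ± 0.17, adjusted p = 3.7e-07) and Ppat (-1.24 ± 0.26, adjusted p = 0.00097), which are enzymes of purine synthesis, and the mitochondrial kinase Dguok (-1.45 ± 0.29, adjusted p = 0.00083). The part of the skeletal muscle RNA of the control arrays in these lower calls was not tested. Purine synthesis did not fall as a whole. All tumors lay above all controls for Pfas (2.46-fold) and Gart (1.76-fold), and the groups overlapped for Atic (1.64-fold) and Gmps (1.16-fold). Adsl was at 11.24, 11.26 and 11.25 in controls and at 8.73, 9.30 and 9.76 in tumors, so that all tumors lay below all controls. The proliferation marker Mki67 was at 5.60, 5.81 and 5.53 in controls and at 8.97, 10.83 and 12.58 in tumors (5.01 ± 0.51, adjusted p = 2e-06).

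When the tumors were classified by inducer, most members remained higher than in controls in each group. The same 3 controls serve in every one of these comparisons, so the counts are not independent of each other. In MWCNT B tumors 33 of 40 members were called higher (20.8% of all probe sets were), with a median log2 fold change of 2.31. In MWCNT C tumors 36 were called higher (21.9% of all probe sets) with a median of 2.70, and in MWCNT D tumors 33 (22.4%) with a median of 2.03. In amosite tumors 33 were called higher (22.3%) with a median of 2.27. Under none of the 4 inducers was a member called lower, against 9.39% (MWCNT B), 10.2% (MWCNT C), 10.2% (MWCNT D) and 9.51% (amosite) of all probe sets. Under all 4 inducers 31 members were called higher, and the share of all probe sets so called was not counted. Pola2, Rpa1 and Rpa3 were not called under any inducer. Orc2 was not called for MWCNT B (0.90 ± 0.26) and MWCNT C (0.86 ± 0.23), Rfc4 not for MWCNT D (0.53 ± 0.36) and Rrm1 not for amosite (0.87 ± 0.29). Pold2, Rpa2 and Dut were called for MWCNT C and for no other inducer, but none of the members was called in the tests between inducers given below. The highest tumor for each of these genes was MWCNT C replicate 2 (Pold2 10.20, Rpa2 9.21, Dut 12.30). In MWCNT C replicates 1 and 3 Pold2 was at 9.53 and 9.05, Rpa2 at 8.59 and 8.18 and Dut at 11.28 and 11.95. These calls and the higher median for MWCNT C therefore lean on a single tumor.

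By tumor type the counts were 34 of 40 called higher in sarcomatoid tumors (23.3% of all probe sets, members' median 2.51), 33 in biphasic tumors (24.0%, median 2.26) and 31 in epithelioid tumors (24.6%, median 1.95). The 6 MCM ring subunits were called in all 3 types, with a median change of 3.36 in sarcomatoid, 3.18 in biphasic and 2.97 in epithelioid tumors. Epithelioid tumors gave no call for Orc2 (0.98 ± 0.25), Rfc4 (1.01 ± 0.43) and Rrm1 (0.80 ± 0.29) beside the 6 members that were not called over all tumors. Rfc4 was not called in biphasic tumors either, where it averaged 9.19 against 8.30 in controls. No member was called lower in any type, against 10.9% (sarcomatoid), 10.2% (biphasic) and 9.64% (epithelioid) of all probe sets. In all 3 types 31 members were called higher. These comparisons share the same controls, and the share of all probe sets called higher in all 3 types was not counted.

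**Figure D3:**
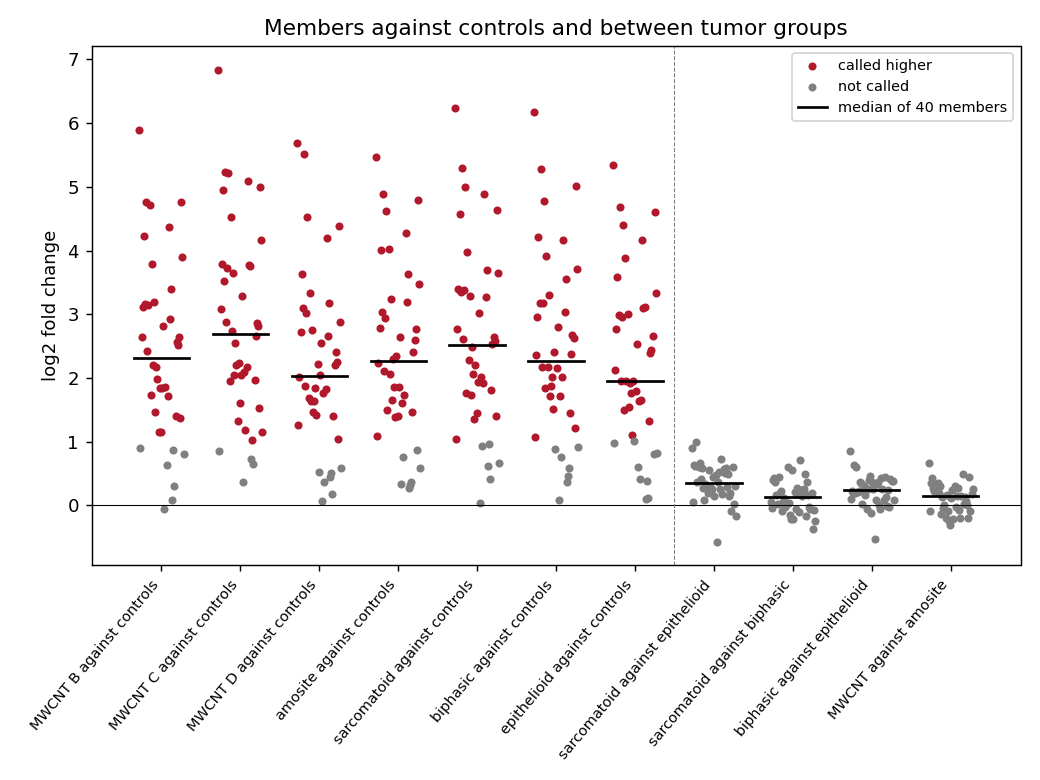
Log2 fold change of the 40 members in 11 comparisons, each point 1 gene and each black line the median. To the left of the dashed line the tumors of each inducer or type are set against the 3 controls, with 31 to 36 members called higher (red). To the right tumor groups are set against each other, with no member called and medians of 0.13 to 0.35.

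Between tumor types, differences were small against the spread of the tumors. In sarcomatoid against epithelioid tumors 0 of 40 members were called by limma, and 0.760% of all probe sets were, mostly lower in sarcomatoid tumors. The members' median difference was 0.35, 37 of 40 were higher in sarcomatoid tumors on average, and 2 of 40 had an unadjusted p below 0.05, against 13.3% of all probe sets, with a smallest adjusted p of 0.35. Rrm1 averaged 10.29 ± 0.49 (SD, n = 5) in sarcomatoid, 10.10 ± 0.27 (n = 3) in biphasic and 9.69 ± 0.29 (n = 3) in epithelioid tumors. Gmnn averaged 9.49 ± 1.04 in sarcomatoid, 9.13 ± 0.39 in biphasic and 8.50 ± 0.22 in epithelioid tumors, and its difference of 0.99 ± 0.48 (SE) between sarcomatoid and epithelioid tumors had an adjusted p of 0.41. The sarcomatoid group held both the highest (10.60) and the lowest (7.79) tumor for Gmnn. The latter was MWCNT D replicate 2, and without it Gmnn was called at 1.42 ± 0.30 (adjusted p = 0.044), the 1 member called between tumor groups in any of the alternatives run. The members' median difference was 0.16 without MWCNT C replicate 2, the tumor with the highest levels, 0.20 without MWCNT D replicate 1 and 0.67 without both tumors that carried pancreatic RNA (described below).

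In sarcomatoid against biphasic tumors 0 members were called and 0 had an unadjusted p below 0.05 (limma; 0.248% of all probe sets called, median difference 0.13, range -0.37 to 0.72). The median turned to -0.04 without MWCNT C replicate 2 and to -0.01 without amosite replicate 2, and was 0.34 without MWCNT D replicate 2 and 0.28 without MWCNT D replicate 3. In biphasic against epithelioid tumors 0 members were called, 0 had an unadjusted p below 0.05, and 0% of all probe sets were called (median 0.23, range -0.52 to 0.85). Leaving out single tumors moved this median between 0.08 (without MWCNT D replicate 3) and 0.43 (without amosite replicate 2), with 0.10 without MWCNT D replicate 1 and 0.37 without amosite replicate 1. The F test of limma over the 3 types gave 0 members, none of them with an unadjusted p below 0.05, and 0.609% of all probe sets. With inducer as a covariate the members' median difference between sarcomatoid and epithelioid tumors was 0.22, again with 0 members called. The standard errors of the members' differences between sarcomatoid and epithelioid tumors ran from 0.23 to 0.67, so that small differences could not be seen with these numbers of tumors.

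Carbon nanotube and amosite tumors were set against each other as the mean of MWCNT B, C and D less amosite. By limma 0 of 40 members were called, 0 had an unadjusted p below 0.05, and 0% of all probe sets were called. The median difference was 0.14, with a range of -0.30 to 0.67, and 0.13 with tumor type as a covariate. It was 0.04, 0.03 and 0.02 without MWCNT C replicate 2, MWCNT D replicate 3 and amosite replicate 2 respectively. Rpa2 averaged 7.95 ± 0.13 (SD) in amosite tumors, and 8.50 ± 0.12, 8.66 ± 0.52 and 8.13 ± 0.58 after MWCNT B, C and D. Its difference of 0.49 ± 0.25 (SE) between nanotube and amosite tumors had an adjusted p of 0.97. The F test of limma over the 4 inducers called 0 members and 0.00322% of all probe sets. Prim1 and Mcm4 were the 2 members with an unadjusted p below 0.05 in that test, against 4.75% of all probe sets, and both had an adjusted p of 0.95. Mcm4 averaged 10.39 ± 0.19 (SD) in amosite tumors, and 10.70 ± 0.57, 11.16 ± 0.61 and 10.15 ± 0.31 after MWCNT B, C and D. A missed threshold in groups of 2 or 3 tumors does not show that the inducers act alike.

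Single tumors ranged widely. MWCNT C replicate 2, a sarcomatoid tumor, had the highest level of all tumors for 33 of 40 members, and it was among the 3 highest tumors for 39. Its members lay at a median of 1.08 above the tumor medians, and its Mki67 (12.58) was also the highest. The exception was Orc2, for which this tumor was the lowest at 8.79. MWCNT D replicate 3, a biphasic tumor, was highest for 5 members, among them Mcm3 and Mcm7, with a median of 0.31 above. At the other end were MWCNT D replicate 2 (sarcomatoid; lowest for 16 members, median 0.49 below) and MWCNT D replicate 1 (epithelioid; lowest for 15, median 0.52 below). The 3 MWCNT D tumors therefore ranged from a median of 0.31 above to 0.52 below the tumor medians. With each array centred on its median, chosen after seeing the data, MWCNT C replicate 2 was still highest for 33 members.

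**Figure D4:**
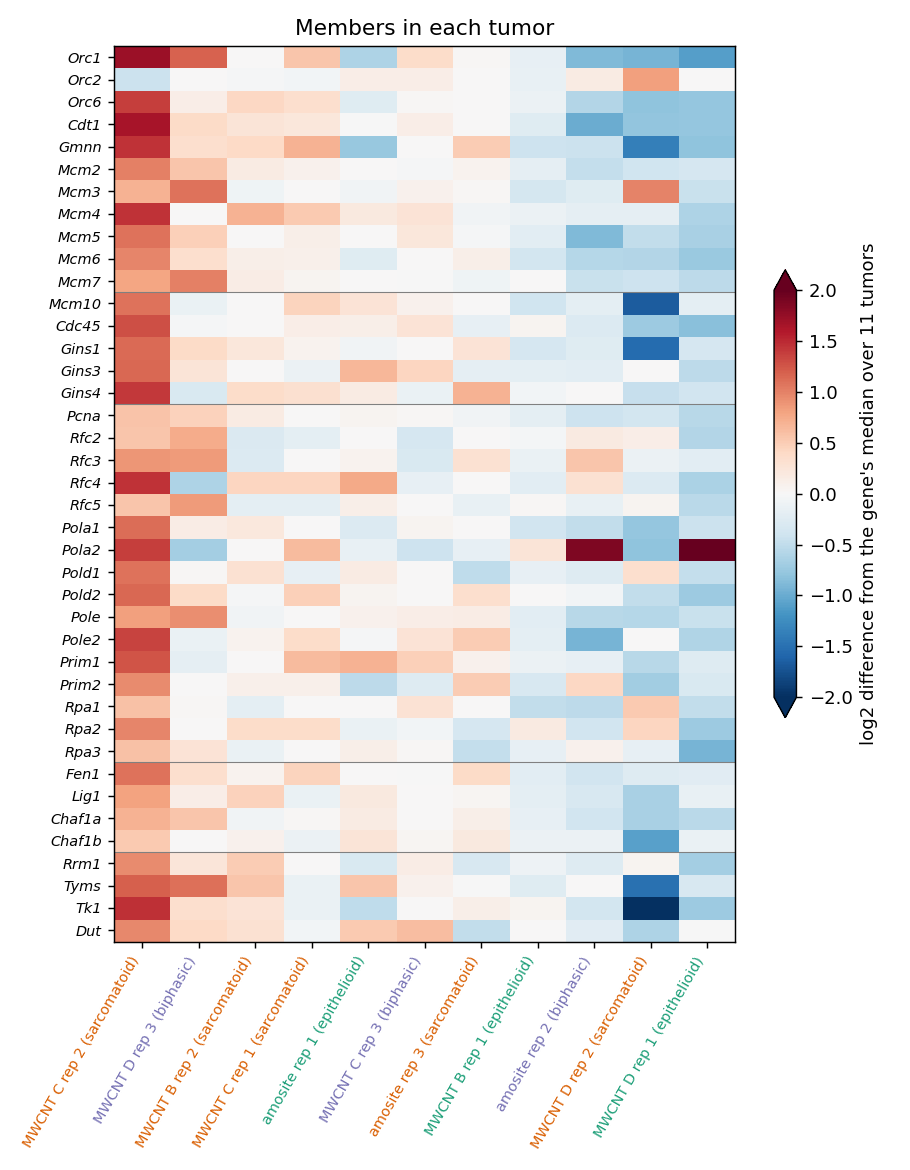
Difference of each member (rows) in each of the 11 tumors (columns) from that gene's median over the tumors, in log2 units, with red above and blue below. Columns run from the highest to the lowest median difference, and the first column, MWCNT C replicate 2, is 1.08 above the tumor medians.

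The range between the highest and lowest tumor was 1.11 to 3.60 over the members (median 1.68) and exceeded 2 for 13 members. It was widest for Tk1, from 7.82 in MWCNT D replicate 2 to 11.42 in MWCNT C replicate 2. In MWCNT D replicate 2 the low members included Tk1, Tyms (6.94), Mcm10 (5.53), Gins1 (6.41) and Chaf1b (6.28), while Mcm3 at 10.28 and Orc2 at 10.04 were high there. This tumor and amosite replicate 1 also carried pancreatic enzyme RNA, with the 7 markers averaging 14.78 and 15.59 against 5.61 to 6.26 in the other tumors. MWCNT D replicate 2 had T cell (10.88), B and plasma cell (12.45) and endothelial (11.40) markers at the highest levels of all tumors as well. Its mesothelial markers averaged 7.56, the lowest of all tumors, with MWCNT B replicate 2 next at 9.34. The part of these cell types in the levels of MWCNT D replicate 2 was not tested. Without both tumors 33 members were called between tumors and controls, Orc2 (0.94) being the one that was lost.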

How the data were processed

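RNA of 11 tumors and 3 control peritoneal tissues was hybridized to 1 array each. The authors normalized the intensities with PLIER in the Transcriptome Analysis Console and deposited a table of linear intensities (signals) of 31099 probe sets on the 14 arrays, without detection calls. PLIER signals can be close to 0, so that fold changes of genes that are dim in one group are uncertain in size, and the number of arrays limits the precision. Here 57 Affymetrix control probe sets were removed and log2(signal + 1) was taken, with a pseudocount of 1. Gene symbols came from the platform annotation, updated by gene ID to RefSeq: 20826 probe sets had 1 symbol (68 kept as annotated), 436 several and 9780 none.

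The tests were those of limma 3.58.1 (R 4.3.3), run over all 31042 probe sets, for tumors against controls, for the 5 inducer groups and for the 4 tissue types, with Benjamini-Hochberg adjustment. A call needed both an adjusted p under 0.05 and a change of over 2-fold. The fits were tested on simulated data. Samples were grouped by the labels. They call the samples biological replicates, and the p-values measure the spread between these samples. The members and lists were chosen with earlier results of these data known. Values on single arrays are given for the 6 MCM subunits, the largest and smallest change in each role class and every member not called, and Pcna, Gmnn, Adsl and Mki67 were added. The alternatives were 2 other scalings, a filter, a floor, another pseudocount, other moderation, the mean of all probe sets of a gene, a stricter threshold, a replicate block, covariates, fits of the compared groups alone and leaving out arrays. Promoters were the first RefSeq entry of each gene in GRCr8. Tables and plots were made with pandas 2.3.3 and matplotlib 3.10.9 in Python 3.11.15.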

Additional observations from a re-analysis of the deposited data

Results flagged for a closer look

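Gins3, a subunit of the GINS complex, had 1 sarcomatoid tumor far from the others: MWCNT C replicate 2 was at 8.55, while the other 4 sarcomatoid tumors lay between 7.22 and 7.40, so that the gap took 0.86 of the range of the 5 tumors. The 40 members were looked at in this way in the sarcomatoid group, and chance alone flags about 1 in 20 such groups.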

How the results depend on the processing

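The counts of called members kept within 1.5 times of the reported ones in all but 3 cases. At an adjusted p under 0.001, 21 members were called for MWCNT B and 21 for MWCNT D, where the number of tumors is 2 and 3. Leaving out each array in turn gave 0 to 1 members called for sarcomatoid against epithelioid tumors, 33 to 34 for all tumors and 26 to 33 for MWCNT B. After centring, the change turned for Pola2 (-0.24), Rpa1 (-0.04) and Rpa3 (-0.07), and after quantile normalization for Pola2 (-0.19); none of these was called. Calls lost for Orc2, Rfc2, Rfc4 and Rrm1 stand beside their values in the report, and at an adjusted p under 0.001 Rfc4 and Rrm1 were not called either. Orc1 gave no value with the filter at a mean log2 signal of 6. The replicate numbers showed no clear pairing of the samples. Over 26 pairs with the same number the correlation of deviations ran from -0.29 to 0.392 (median 0.0151), and 6 were above 0.1. Over 52 pairs with other numbers it ran from -0.448 to 0.448 (median -0.0039), and 8 were above 0.1. Of the 14 arrays, 5 correlated best with an array of their own number. With the replicate block 34 members were called in tumors against controls, 32 in MWCNT B and 32 in epithelioid tumors, and 0 between types, while the probe sets called between sarcomatoid and epithelioid tumors dropped from 236 to 3. All 3 epithelioid tumors bore replicate number 1, as did 1 sarcomatoid tumor, so the block overlaps with tumor type. The cause of these changes was not tested. Dim control signals limit the size of the change for the 10 members with a control mean below log2 5 (Orc1, Gmnn, Mcm3, Mcm10, Gins1, Pole2, Prim2, Chaf1a, Chaf1b and Tyms).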
